A study of Mus musculus with 6 samples.

Results

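Tlr4, Wdfy1 and Bambi are 3 of the 1420 genes in the deposited table of small intestinal organoids with and without Smarcad1, a chromatin remodeling ATPase. They were taken by gene name, for their links to receptor signaling at the epithelial surface, and all 3 were found. Organoids are closed epithelial bodies that crypts form in culture, and poly(A)-selected RNA was sequenced from 3 wild-type (WT) and 3 Smarcad1 knockout (KO) cultures after 5 days, about 600 organoids per condition. All 6 cultures were on the C57BL/6 background and grew in the same medium with EGF, Noggin and R-spondin-1, so the cells of both groups had been supplied with Noggin, a secreted BMP antagonist. The genotype label names deletion by Vil-Cre, a driver of the intestinal epithelium, whereas the growth protocol and the methods of the study name ZP3-Cre, a driver of the oocyte, with littermate controls. Organoids of this kind contain no microbiota and no immune cells by design, and were profiled to look at expression apart from both. The series text calls the cultures biological triplicates but does not say which came from separate animals, so p-values measure the spread between these cultures.

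Tlr4 encodes the Toll-like receptor for bacterial lipopolysaccharide. It signals from the plasma membrane through the adaptor Myd88, and from endosomes through the adaptor Ticam1 (TRIF), to NF-kappa-B and interferon response factors. Mature small intestinal epithelium is known for low Tlr4 levels. Wdfy1 encodes a protein with WD repeats and a FYVE domain, a zinc finger that binds the lipid PI3P on early endosomes, and it recruits Ticam1 to Tlr3 and Tlr4. Bambi encodes a transmembrane pseudoreceptor that resembles TGF-beta and BMP type I receptors but lacks the kinase domain, and so acts as a decoy. Tlr4 signaling is known to lower Bambi in liver stellate cells, and Wnt signaling is known to raise it.

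The values are RPM, reads per 1e+06 reads of a library. They were whole multiples of a common step in each library, taken as 1 read, which gave depths from 12.4 to 15.7 (in units of 1e+06 reads). A floor of 3 reads then lay between 0.192 and 0.242 RPM; intervals for reads cover counting error only. Smarcad1 itself fell from 98.8 ± 5.80 to 22.3 ± 1.49 RPM (SD, n = 3 each), with no overlap between groups, in the direction of the labels. The table holds only genes that the authors had already selected for a KO difference on these same libraries. A second test can therefore only describe the listed genes: limma called 99.9% of the rows at an adjusted p-value under 0.05 (52.5% higher and 47.4% lower in KO; with a trend on transcript length removed, 524 higher and 653 lower of 1396), and 98.5% of the rows had no overlap between KO and WT values.

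Tlr4 was close to silent in WT organoids and low but measurable in KO organoids. It is a plus-strand gene of chromosome 4 (GRCm38, 66827584 to 66930284), and no other annotated gene overlaps it. In the WT libraries Tlr4 was measured at 0.155, 0.0639 and 0.261 RPM. These values rest on 2, 1 and 4 reads, so that WT replicates 1 and 2 were under the floor of 3 reads. In the KO libraries Tlr4 was measured at 2.01, 3.09 and 2.87 RPM, from 25, 45 and 41 reads. Each KO library was above each WT library, with a gap of 1.75 RPM between the highest WT and the lowest KO value. The exact Poisson 95% intervals of single libraries reached up to 0.668 RPM in WT and down to 1.30 RPM in KO, and so did not meet.

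The Tlr4 mean rose from 0.160 ± 0.0987 to 2.66 ± 0.569 RPM (SD, n = 3 each). Summed over libraries, 7 reads in WT stood against 111 reads in KO, a ratio of 16.8 per unit of depth with an exact conditional 95% interval from 7.91 to 42.9. The size of this ratio depended on single WT libraries, since it was 25.6 without WT replicate 3 and 12.6 without WT replicate 2. KO exceeded WT by 3.46 ± 0.31 (standard error; limma adjusted p = 0.000499) on the log2(RPM + 0.1) scale. With a pseudocount of 0.5 it was 2.25, and with a pseudocount of 1 it was 1.65, so its size is given here mainly by the read ratio. The exact two-sided permutation p-value was 0.1, the smallest that 3 against 3 libraries allow. In the whole table, 18 genes had at most 4 reads in every WT library, and Tlr4 was one of them.

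Bambi rose from a low to a moderate level. It is a plus-strand gene of chromosome 18 (3507957 to 3516404), with 1 annotated transcript and no overlapping gene. In the WT libraries Bambi was measured at 5.67, 7.47 and 4.50 RPM, from 73, 117 and 69 reads. In the KO libraries it was measured at 30.2, 29.2 and 24.6 RPM, from 375, 426 and 351 reads. The highest WT value and the lowest KO value were 17.1 RPM apart, a wider gap than the spread within either group.

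The Bambi means were 5.883 ± 1.496 RPM in WT and 28.0 ± 2.99 RPM in KO (SD, n = 3 each), a ratio of 4.76. From summed reads the ratio was 4.73, with an exact conditional 95% interval from 4.13 to 5.43. On the log2 scale the rise was 2.26 ± 0.20 (standard error; limma adjusted p = 0.000495), and the exact permutation p-value was again 0.1. The coefficient of variation was 25.4% in WT and 10.7% in KO, where the median row of the table had 8.34% and 13.4%. Bambi thus varied more between WT cultures than most listed genes did. Its WT mean, however, was above that of only 16.0% of the rows, and counting error weighs more at low levels. Rows of like level were not compared.

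Wdfy1 fell, and was the most even of the 3 genes between replicates. It is a minus-strand gene of chromosome 1 (79702262 to 79776143). In the WT libraries Wdfy1 was measured at 128.9, 138.3 and 128.6 RPM, and in the KO libraries at 78.2, 83.9 and 81.7 RPM. All KO values were below all WT values, by at least 44.7 RPM. The means were 131.9 ± 5.52 RPM in WT and 81.3 ± 2.83 RPM in KO (SD, n = 3 each). KO organoids kept 61.6% of the WT mean, and the log2 change was -0.70 ± 0.09 (standard error; limma adjusted p = 0.00179), and the exact permutation p-value was 0.1. The coefficient of variation was 4.18% in WT and 3.49% in KO.

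At its first exons Wdfy1 overlaps Mrpl44, a gene of the mitochondrial ribosome on the other strand, by 126 exonic bases. Gm10555, also on the other strand, lies within Wdfy1 without touching an annotated exon of it. Neither gene is among the listed genes. The libraries were strand-specific, but whether strand was used in counting is not stated, so reads in those 126 bases could come from either gene.

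**Figure D1:**
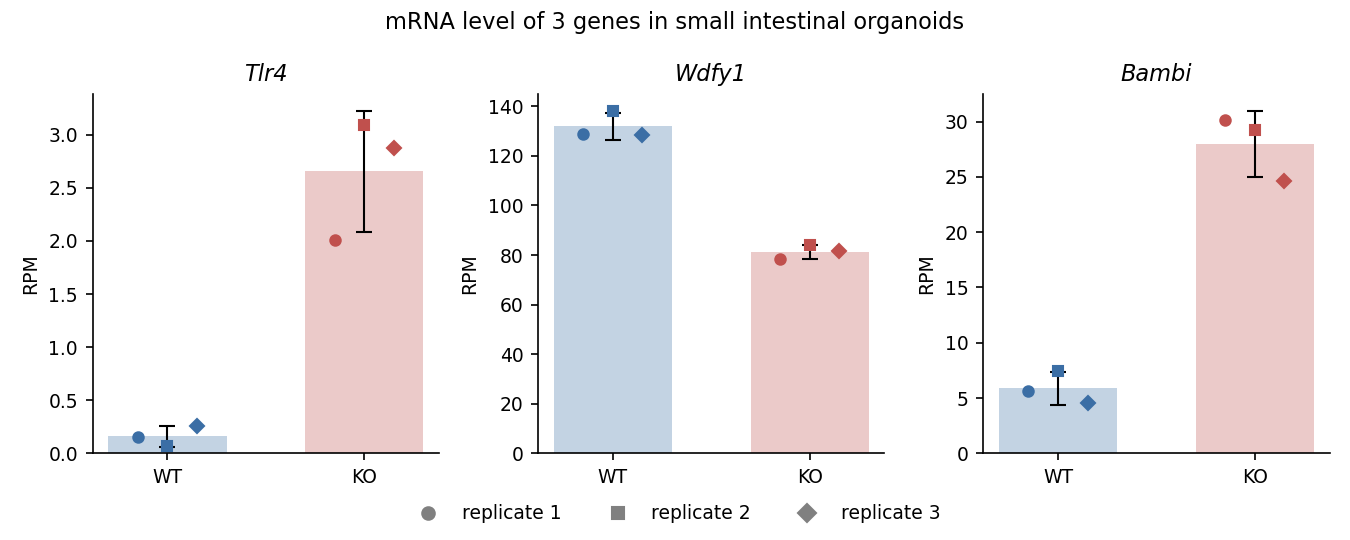
RPM of Tlr4, Wdfy1 and Bambi in 3 WT and 3 KO libraries of small intestinal organoids; bars are means, error bars SD (n = 3), and symbols single replicates, on a linear axis from 0. KO values lie above all WT values for Tlr4 (2.01 to 3.09 against 0.0639 to 0.261 RPM) and Bambi, and below all WT values for Wdfy1.

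The 3 genes differed widely in level, and in KO the ratios of Wdfy1 to Bambi and to Tlr4 were smaller than in WT. Per kb of merged exons (5556 bases for Tlr4, 6488 for Wdfy1 and 5074 for Bambi), the WT levels were 20.3 ± 0.850 RPM per kb for Wdfy1, 1.16 ± 0.295 for Bambi and 0.0288 ± 0.0178 for Tlr4 (SD, n = 3 each). In KO the levels were 12.5 ± 0.437 RPM per kb for Wdfy1, 5.52 ± 0.590 for Bambi and 0.478 ± 0.102 for Tlr4. The order was the same in both groups, and neighbors in it differed by more than their spread. Merged exons include those of rare transcripts, of which Wdfy1 has the most with 14 annotated transcripts, and so understate the level of the common ones. On the log2(RPM + 0.1) scale the difference between Wdfy1 and Bambi ran from 4.19 to 4.80 in the WT libraries and from 1.37 to 1.73 in the KO libraries. Tlr4 minus Bambi ran from -5.53 to -3.67 in WT and from -3.84 to -3.05 in KO, so that here the groups overlapped.

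Among the 1420 rows ordered by the size of the log2 change at a pseudocount of 0.1, Tlr4 was at rank 29, Bambi at rank 87 and Wdfy1 at rank 636. With a pseudocount of 1 the change was 1.65 for Tlr4 and 2.09 for Bambi, so the order of these genes depends on the pseudocount. The change of Wdfy1 was close to the median size over all rows, 0.64. A log2 change of at least 1 together with an adjusted p-value under 0.05 was reached by 27.1% of the rows, Tlr4 and Bambi included and Wdfy1 not. In mean RPM, Tlr4 stood above 2.54% of the rows, Bambi above 24.0% and Wdfy1 above 63.0%. Among the 145 rows with a mean under 5 RPM, Tlr4 included, the smallest log2 change in either direction was 0.92, so that listed genes of low level all have large changes.

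**Figure D2:**
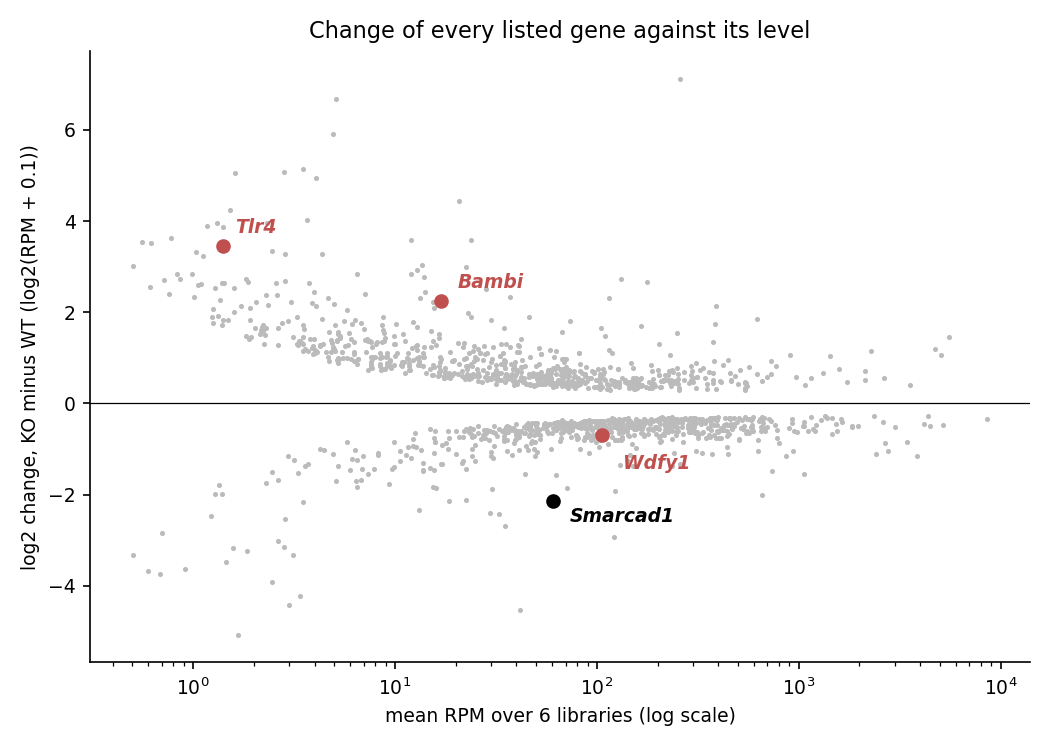
Log2 change in KO against WT on the log2(RPM + 0.1) scale (vertical) against the mean RPM over 6 libraries (horizontal, log scale) for the 1420 listed genes, grey, with Tlr4, Wdfy1 and Bambi in red and Smarcad1 in black. Tlr4, at 3.46, lies among the low genes with large rises, Bambi is at 2.26, and Wdfy1 at -0.70 lies within the dense band of lower genes.

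Other genes of the pathways were taken from lists written for this comparison, with earlier results of these data known. Of 238 gene names in 9 lists, 23 are among the listed genes, and the others were not analysed here. All 23 passed the limma threshold, 16 higher and 7 lower in KO, and none overlapped between groups, as was true of nearly all rows. Over all rows, 52.5% were called higher and 47.4% lower. The directions within these short lists were therefore not read as results about a pathway. Their median log2 change was 0.42 and the median over all rows was 0.38.

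Of 97 genes of Toll-like receptor signaling, 11 are listed, 6 higher and 5 lower. No other Toll-like receptor is among them, nor are Ly96, Cd14, Lbp or Myd88, which receive lipopolysaccharide with Tlr4 or pass its signal on. Of 20 sensors, co-receptors and their chaperones, 1 is listed and was lower: Hsp90b1, an endoplasmic reticulum chaperone that Toll-like receptors need for folding, at 1813 ± 160.2 RPM in WT and 1433 ± 59.5 RPM in KO (SD, n = 3 each). Its reads are uncertain where annotated genes share 84 and 133 bases of its exons on its own strand and 415 on the other.

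Of 33 adaptors, kinases and transcription factors, 3 were higher and 3 lower, and their median log2 change was -0.013. Ticam1, the adaptor that Wdfy1 brings to Tlr3 and Tlr4, was also lower in KO, as were 47.4% of all rows. It was measured at 99.5, 108.1 and 100.4 RPM in WT and at 74.5, 80.8 and 78.8 RPM in KO. On the log2 scale this was -0.39 ± 0.10 (standard error; limma adjusted p = 0.00909). All KO values of Ticam1 were below all WT values, as for Wdfy1, but 98.5% of all rows had no overlap between groups. Chuk, a kinase of the NF-kappa-B pathway (IKK-alpha), fell by 0.58 on the log2 scale, to 152.9 ± 18.5 from 227.3 ± 12.2 RPM (SD, n = 3 each). Mapk8 and Mapk9 encode the stress kinases JNK1 and JNK2 and had log2 changes of -0.52 and 0.37. The change of Mapk8 was -0.32 without KO replicate 1, and with the replicate number as a block neither passed (limma adjusted p = 0.0549 and 0.0578). Mapk8, the fifth of the list in level, was given values beyond the naming rule after its values were seen. Relb, an NF-kappa-B subunit of the alternative pathway, rose by 0.42, from 103.4 ± 12.4 to 138.1 ± 7.04 RPM (SD, n = 3 each).

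Of 18 inhibitors of this signaling, 1 is listed. Tnip1, which works with the ubiquitin-editing protein Tnfaip3 to restrain NF-kappa-B, fell by 0.60 on the log2 scale, from 170.2 ± 9.91 to 111.9 ± 4.66 RPM (SD, n = 3 each; limma adjusted p = 0.00309). Of 26 genes that Toll-like receptors are known to induce, 3 are listed and all 3 were higher (median log2 change 0.74). Nos2, the inducible nitric oxide synthase, was at 19.7, 27.1 and 21.1 RPM in WT and at 37.2, 44.5 and 39.9 RPM in KO. Ifit1, an interferon-induced gene, was at 5.91, 5.24 and 5.29 RPM in WT and at 9.50, 8.72 and 9.39 RPM in KO. In both genes the lowest KO value was well above the highest WT value. Cxcl16, a chemokine of epithelial cells, rose by 0.51, but shares 552 exonic bases with a gene on the other strand, and its change was 0.27 (limma adjusted p = 0.0832) once a trend with transcript length was removed. Tnf, Il6, Cxcl1, Cxcl2 and Ccl20 are not among the listed genes and were not analysed here.

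Of 76 genes of BMP, TGF-beta and activin signaling, to which Bambi belongs, 7 are listed, 5 higher and 2 lower. Of the 7, 3 (Nbl1, Tgfbi and Gdf9) changed by at least 1 on the log2 scale. Over all rows, 27.1% did so with an adjusted p-value under 0.05, so a count this small was not read as a result about the list. With a trend on transcript length removed, Nbl1 was at 0.96 and Gdf15 at -1.23, in place of 1.38 and -0.76. None of the serine/threonine kinase receptors that Bambi can pair with, and no Smad, is among them. The list of 24 ligands also counts Bmp1, a protease. Of this list, Bmp3, which is known to oppose other BMPs, rose from 94.7 ± 16.5 to 159.2 ± 18.3 RPM (SD, n = 3 each). Gdf15, a stress-induced member, fell from 34.91 ± 6.398 to 20.9 ± 4.96 RPM, and Gdf9, known from the oocyte, fell from 8.59 ± 2.20 to 3.68 ± 1.18 RPM (SD, n = 3 each). Of 17 receptors and co-receptors, Rgmb, a BMP co-receptor, had a log2 change of 0.39, and of 0.26 without KO replicate 3.

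Of 35 Smads, inhibitors and target genes counted here, 3 are listed and were higher. Nbl1, a secreted BMP antagonist, was at 13.1, 6.96 and 6.396 RPM in WT and at 26.6, 22.2 and 17.8 RPM in KO, a rise of 1.38 ± 0.30 on the log2 scale (standard error; limma adjusted p = 0.0064). Tgfbi, an extracellular matrix protein and known TGF-beta target, was at 23.5, 20.6 and 15.9 RPM in WT and at 68.1, 49.1 and 35.2 RPM in KO. In neither Nbl1 nor Tgfbi did the groups overlap, and in both KO replicates 1 and 3 were the furthest apart of the KO libraries. Tgif1, a Smad co-repressor, had a log2 change of 0.34.

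Of 23 Wnt target and stem cell gene names, 3 are listed and all were higher: Sox9, Rnf43 and Ephb3, with log2 changes of 0.56, 0.50 and 0.57. Among these names, Troy and Tnfrsf19 stand for the same gene. Sox9, a transcription factor of crypt and Paneth cells, rose from 107.9 ± 6.22 to 158.8 ± 8.36 RPM (SD, n = 3 each). Rnf43, a ubiquitin ligase that removes Wnt receptors, rose from 123.4 ± 10.6 to 174.8 ± 22.1 RPM, and Ephb3, a receptor that positions Paneth cells, from 83.1 ± 7.95 to 123.1 ± 7.69 RPM (SD, n = 3 each). Of 42 genes linked to endosomes and to PI3P, the lipid that the FYVE domain of Wdfy1 recognizes, 2 are listed. Atg14, a subunit of the kinase complex that makes PI3P, rose from 19.0 ± 1.93 to 27.4 ± 2.23 RPM (SD, n = 3 each). It shares 239 exonic bases with an antisense gene. Mtmr3, a FYVE-domain phosphatase of the same lipid, had a log2 change of 0.32. No other Wdfy gene is listed.

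Of these 23 genes, 7 lost an adjusted p-value under 0.05 when single libraries were left out. Without WT replicate 1 these were Hsp90b1, Relb, Mapk8, Mapk9, Rgmb, Tgif1 and Mtmr3, with limma adjusted p-values from 0.0548 to 0.0912. Without WT replicate 3 or KO replicate 2 they were the same genes except Relb, with adjusted p-values from 0.0543 to 0.110. Without WT replicate 2 or KO replicate 3 they were Mapk9, Rgmb, Tgif1 and Mtmr3, with adjusted p-values from 0.0509 to 0.103. Without KO replicate 1 none was lost. Direction was the same in all these fits, and Tlr4, Wdfy1 and Bambi stayed past the threshold in each of them.

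**Figure D3:**
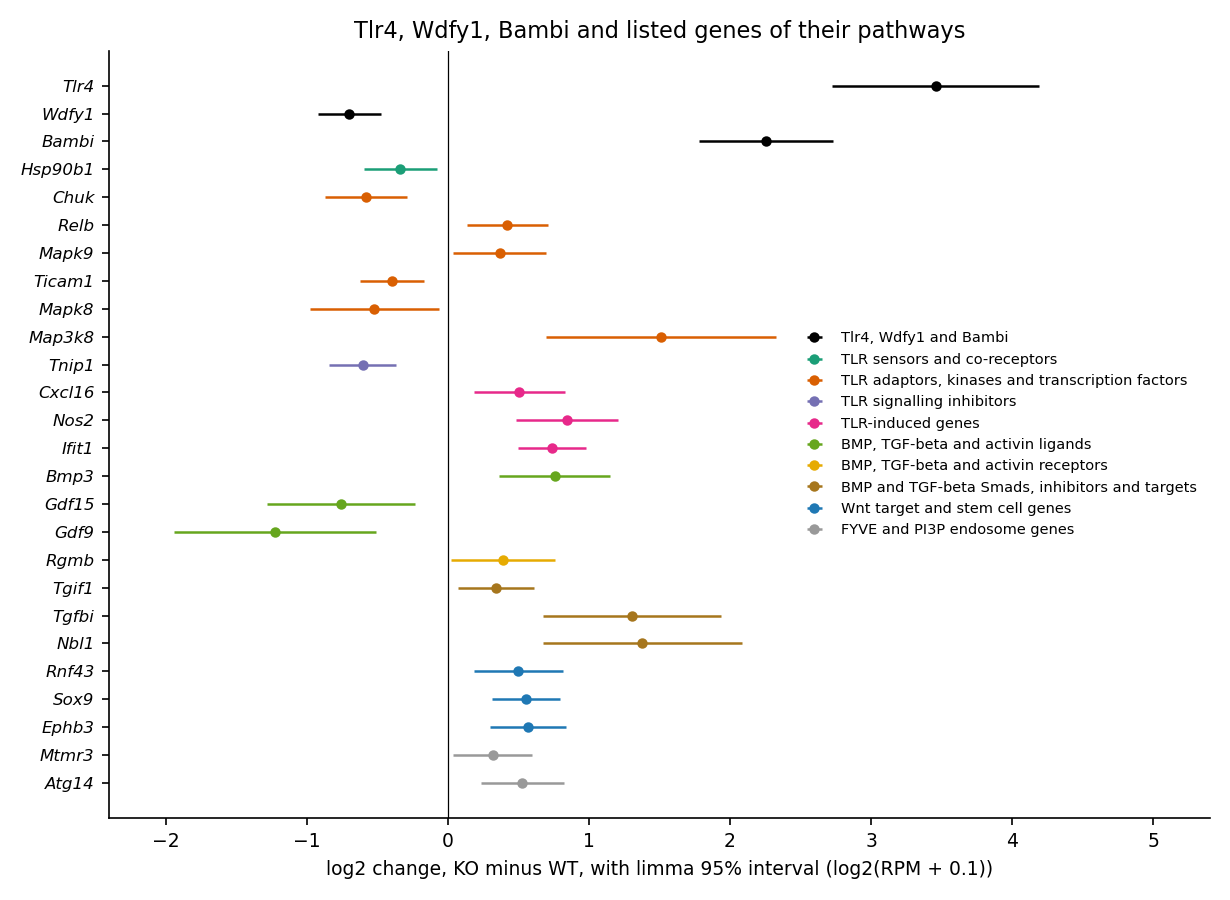
Log2 change in KO against WT with limma 95% intervals (horizontal, log2(RPM + 0.1) scale) for Tlr4, Wdfy1 and Bambi and for the 23 listed genes of 9 pathway lists, in colors by list and within a list by mean RPM. Tlr4 and Bambi changed by more than any of the 23, whereas the change of Wdfy1, -0.70, lies between those of Gdf15 (-0.76) and Tnip1 (-0.60).

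The listed genes with the pattern most like each of the 3 were found by the root mean square difference, over the 6 libraries, between profiles of log2(RPM + 0.1) set to 0 at the WT mean. As every row was selected for a group difference, likeness here is in size and direction of change as well as in replicate spread. Nearest to Tlr4 were Gm45104, H2-Eb1 and Nxf7, at differences of 0.38, 0.43 and 0.43 where the median row was at 2.22. H2-Eb1, a chain of the MHC class II molecules that present antigens, was listed at 0, 0 and 0.131 RPM in WT and at 0.886, 0.892 and 1.12 RPM in KO. All its WT libraries were below 3 reads and all its KO libraries above. Nxf7, of a family of mRNA export factors, rose from 2.92 ± 0.426 to 24.4 ± 2.26 RPM, and Gm45104, a predicted gene, from 0.804 ± 0.464 to 7.88 ± 1.93 RPM (SD, n = 3 each).

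Nearest to Bambi were Me3, D330041H03Rik and Eps8l1, at 0.17, 0.18 and 0.24 with a median row at 1.37. Me3, a mitochondrial malic enzyme, was at 5.13, 4.598 and 3.46 RPM in WT and at 24.2, 24.1 and 18.1 RPM in KO, and so was lowest in replicate 3 of both groups, as Bambi was. D330041H03Rik rose from 5.45 ± 0.544 to 25.6 ± 0.341 RPM and Eps8l1, a regulator of actin, from 5.97 ± 1.70 to 25.23 ± 2.999 RPM (SD, n = 3 each). Nearest to Wdfy1 were Bdh1, Gstm6 and Ank, at 0.0651, 0.0655 and 0.0710 with a median row at 0.80. Bdh1, an enzyme of ketone body metabolism, fell from 408.6 ± 19.4 to 263.9 ± 14.4 RPM (SD, n = 3 each). Gstm6, a glutathione transferase of a family of similar genes whose reads could be shared, fell from 109.6 ± 5.88 to 70.2 ± 4.69 RPM, and Ank, a transporter linked to pyrophosphate, from 266.9 ± 2.75 to 165.6 ± 11.1 RPM (SD, n = 3 each).

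**Figure D4:**
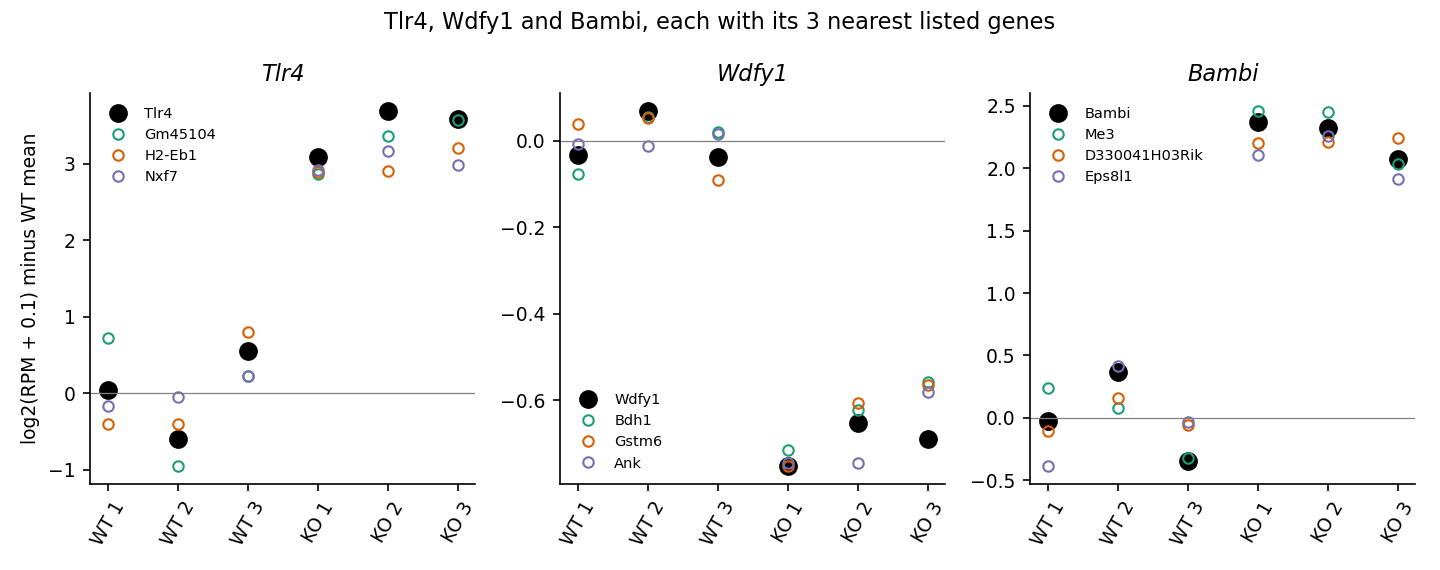
Log2(RPM + 0.1) minus the WT mean (vertical) in each of 6 libraries (horizontal) for Tlr4, Wdfy1 and Bambi, filled, and for the 3 listed genes nearest to each, open circles. The genes nearest to Wdfy1 differ from it by at most 0.0710 (root mean square), while the Tlr4 group spreads more in WT, where Tlr4 has 1 to 4 reads per library.

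On the chromosome, the nearest listed gene to Bambi was Map3k8, 815 kb away at higher coordinates, and no listed gene lies at lower ones. Map3k8 (Tpl2) is itself a kinase downstream of Tlr4, which links it to ERK activation, and it is one of the 23 pathway genes. It was measured at 0.777, 0.958 and 1.63 RPM in WT and at 4.99, 2.61 and 2.59 RPM in KO, a rise of 1.51 ± 0.34 on the log2 scale (standard error; limma adjusted p = 0.00749). No KO value overlapped WT, and KO replicate 1 stood well above the other KO libraries. Tlr4 had no listed neighbor within 3 Mb: Tnfsf15, a cytokine of the TNF family, lies 3.08 Mb below and rose by 1.46 on the log2 scale, and Ptprd, a receptor phosphatase, lies 9.01 Mb above and rose by 0.97. Around Wdfy1, Epha4, an ephrin receptor, lies 2.19 Mb below and rose by 0.87, whereas Rhbdd1, an intramembrane protease, lies 2.54 Mb above and fell by 0.56.

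Cell type markers were set beside these changes, since bulk RNA cannot tell fewer cells of a type from less RNA per cell. Leukocytes carry Tlr4 in most tissues. Of 25 leukocyte markers 2 are listed: Itgam fell from 9.52 ± 1.07 to 4.402 ± 1.514 RPM, and Lyz2 rose from 1.83 ± 0.553 to 5.19 ± 1.29 RPM (SD, n = 3 each). Lyz2 is a close copy of Lyz1, a major Paneth cell product, so its reads are uncertain. As they moved in opposite directions, their sum (10.6 to 12.5 RPM in WT and 8.27 to 11.7 RPM in KO) is no measure of leukocyte RNA. Ptprc, Cd68, Adgre1 and Csf1r were not analysed here, and of 20 stromal and endothelial markers 0 are listed. Among epithelial lists, 15 of 23 Paneth cell markers are listed and all 15, Lyz2 counted here too, were higher, with sums of 9458 to 10922 RPM in WT and 20056 to 29458 RPM in KO. Of the enterocyte markers 12 of 20 are listed, 11 lower and 1 higher, with sums of 22696 to 25791 RPM in WT and 16449 to 17869 RPM in KO. Of the goblet cell markers 6 of 13 are listed, 5 higher and 1 lower, and of the enteroendocrine markers 5 of 20, all higher. Of 14 tuft cell markers 1 is listed, Dclk1, which was lower, and of 15 epithelial identity markers 1 is listed, Krt18, which was higher. Whether these shifts have a part in the changes of Tlr4, Wdfy1 and Bambi was not tested.

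KO replicates 1 and 3 stood apart from each other over the table, with a median size of the difference of 0.32 on the log2 scale. Between them Tlr4 differed by -0.49, Bambi by 0.29 and Wdfy1 by -0.06. These differences were small beside the changes in KO against WT. Without KO replicate 1 the log2 changes were 3.64 for Tlr4, 2.20 for Bambi and -0.67 for Wdfy1, and without KO replicate 3 they were 3.39, 2.35 and -0.70. Removal of the trend with transcript length gave 3.40, 2.26 and -0.75.

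**Figure D5:**
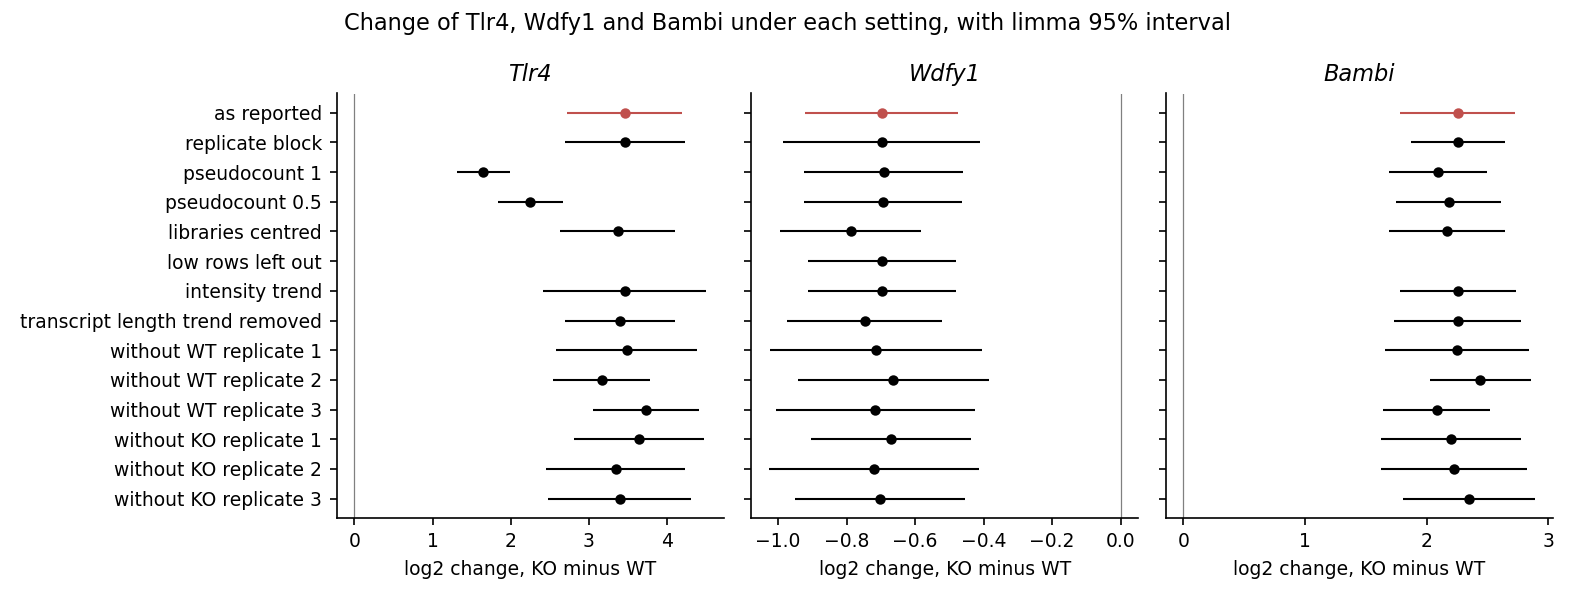
Log2 change in KO against WT with limma 95% intervals (horizontal) for Tlr4, Wdfy1 and Bambi under each setting (vertical); the reported value is in red, and Tlr4 and Bambi have no value where rows with a low mean were left out. Intervals stay on one side of 0 throughout, and the pseudocount moved Tlr4 most, from 3.46 to 1.65.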

How the data were processed

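The authors trimmed reads with Trim Galore 0.4.2, mapped them to GRCm38 with HISAT2 2.0.3 and counted uniquely mapped reads in SeqMonk, summed over exons of merged transcripts. The deposited values are RPM on a linear scale, which the authors scaled to total reads. The deposited FDR column (corrected p-values of the authors' DESeq2 test) was not used. Rows are limited to genes that passed that test, so no test here is independent of their selection. Genes were tested with limma 3.58.1 in R 4.3.3 on log2(RPM + 0.1) over all 1420 rows, with no covariate, and two-sided p-values were adjusted by Benjamini-Hochberg over these rows. The script was tested on simulated data. Single genes were also compared by exact permutation (scipy 1.17.1). A check on the units did not accept the reads inferred from the step as recovered counts, so no count model was fitted across genes; those reads serve for depth, floors and exact Poisson or conditional intervals, which hold only if 1 step is 1 read. Within a group, 6 of 6 library pairs differed by more than sampling noise (chi-square per degree of freedom of at least 15.5), and each library was counted as 1 replicate. Exon lengths and overlaps come from GENCODE M21 (GRCm38), which matched 1396 rows by symbol, strand and position. The 3 genes and all lists were chosen with earlier results of these data known. For 1 of the pathway lists, that of Smads, inhibitors and targets, 1 gene is not reported here and is left out of every list count and median, so that those are not the whole list as chosen. Named genes are the 3, Smarcad1, listed genes of the pathway lists (values for up to 4 per list, highest mean RPM first), the 3 nearest patterns, the nearest listed neighbors and listed markers. Alternatives were a replicate block, pseudocounts of 0.5 and 1, centering of libraries, a filter at the 25th percentile of mean RPM, an intensity trend, removal of a length trend and leaving out each library; leaving out libraries for the lists was added after seeing the data.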

Additional observations from a re-analysis of the deposited data

How the results depend on the processing

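Tlr4, Wdfy1, Bambi and Smarcad1 kept their direction and a limma adjusted p-value under 0.05 in the main fit and every alternative run for them. The alternatives numbered 12 each for Tlr4 and Bambi and 13 each for the others. Across these fits the log2 change ran from 1.65 to 3.73 for Tlr4, from -0.79 to -0.66 for Wdfy1, from 2.08 to 2.44 for Bambi and from -2.23 to -2.09 for Smarcad1. Since the rows were selected on these libraries, this shows little about stability. The filter on the mean (18.5 RPM) removed Tlr4 and Bambi, so they have no value there. With the replicate number as a block, the log2 changes were 3.46, -0.70, 2.26 and -2.14 in that order and 1351 rows passed; Mapk8, Mapk9, Rgmb and Mtmr3 did not (limma adjusted p from 0.0549 to 0.0795). Same-numbered libraries had correlations of -0.084, 0.090 and 0.061, and for 2 of 3 numbers the best match was the same number, so the numbers were not taken to pair the samples. A minimum log2 change of 1 left 385 rows of 1419 by its construction. Leaving out a library gave 1138 to 1404 rows, and removal of the length trend 1177 of 1396, with more lower than higher. Centering shifted the median of all rows by -0.09, gave -0.69 for the TLR inhibitor list (1 gene, Tnip1), and took Mapk9, Rgmb and Mtmr3 past 0.05 (adjusted p from 0.0591 to 0.0705). The median of the TLR adaptor and kinase list, -0.013, falls between a lower gene, Ticam1 (-0.39), and a higher one, Mapk9 (0.37). No gene of the list had a change near it. Without single libraries this median ran from -0.061 to 0.038. It changed sign without WT replicate 2 (0.0030) and without KO replicate 1 (0.038). The Tlr4 read ratio ran from 12.6 to 25.6 without single libraries; with 1 to 4 reads per WT library, depth limits it.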
